A study of Mus musculus with 12 samples.

Results

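The collagen chain genes are the genes of the array annotation whose single symbol is Col, a number, the letter a and a number, such as Col1a1. By that rule 42 of the 17097 measured genes were collagen genes. The rule uses no expression value, but it was chosen with earlier results of these data known. They were read by 68 probesets (sets of short probes for 1 transcript), and the probeset with the highest mean over the 12 arrays stood for the gene. RNA levels are on a log2 scale, so that a difference of 1 is a doubling.

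Collagens are the main structural proteins of the extracellular matrix. Each molecule is a triple helix of chains, each chain type with a gene of its own, and the molecules form fibrils (types I, II, III, V and XI), the sheet-like networks of basement membranes (type IV) or short-chain lattices (types VIII and X), beaded filaments (type VI) or the fibrils that anchor epithelium (type VII), while those of the FACIT class decorate other fibrils. Mesenchymal stem cells (MSCs) secrete fibrillar collagens and collagen VI, and TGF-β, a cytokine that signals through Smad proteins and through kinases such as p38α, is known as an inducer of collagen synthesis in fibroblasts.

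The study asked what p38α does in MSCs, with and without TGF-β. The cells were MSCs from bone marrow of Mapk14 lox/lox mice, whose strain is FVB/NJ in the labels while the study's methods name C57BL/6 J for its experimental mice, immortalized by a 3T3 protocol, and every group carried the floxed alleles of Mapk14 (the gene of p38α) and an inducible Cre. WT MSCs were given vehicle and p38α∆ MSCs were given 4-OHT, which activates that Cre, and all were kept in 0.5% serum. There were 4 arrays of WT MSCs (numbered 1, 3, 4 and 4b), 3 of WT MSCs treated with 5 ng/ml TGF-β for 20 h (1, 3 and 4), 2 of p38α∆ MSCs (1 and 3) and 3 of p38α∆ MSCs treated in the same way (1, 2 and 4). Whether the arrays of 1 group come from separate cultures is not stated in the sources used here, so the p-values measure only how these arrays spread, and a single immortalized line cannot speak for other MSCs. In such bulk RNA, fewer cells of a type and less RNA per cell cannot be told apart.

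Some facts of the whole series touch the collagen values. The 4 arrays numbered 1 stood apart from the other 8 on the first principal component (47.5% of the variance), and 7 collagen genes (Col1a1, Col9a2, Col14a1, Col22a1, Col6a5, Col13a1 and Col15a1) were higher in all arrays numbered 1 than in all others, with none lower. These were 16.7% of the collagen genes, while 21.5% of all genes lay apart in one direction or the other. Groups were therefore compared in 1 limma fit that took arrays with a common number as related (estimated correlation 0.49, and 0.11 with the arrays numbered 1 left out). The WT array 4b lay nearer to the p38α∆ arrays than the other untreated WT arrays did. Over the 63 genes that under TGF-β were higher in p38α∆ than in WT MSCs, the mean log2 value was 6.82 in array 4b, against 6.64 to 6.73 in the other untreated WT arrays and 6.89 in both untreated p38α∆ arrays. Over the 14 genes that were lower it was 7.55 in array 4b, against 7.64 to 7.77 in the other untreated WT arrays and 7.57 and 7.56 in the untreated p38α∆ arrays. Array 4b is kept as labelled, and the collagen calls that change without it, those of Col6a2 and Col27a1, are given with and without it. Of the 5 MSC markers, Pdgfrb (mean log2 value 9.26), Itgb1 (11.17) and Nt5e (6.31) lay above the median gene (5.11), and Eng (4.60) and Mcam (4.57) below it. The endothelial markers Pecam1, Cdh5, Kdr and Tek (3.33 to 3.93) and the leukocyte markers Ptprc, Cd3e and Cd68 (2.78 to 4.41) all lay below it. The Mapk14 probeset with the highest mean gave 8.95 to 9.12 in untreated WT and 9.01 and 9.03 in untreated p38α∆ MSCs, but where its listed probesets lie relative to the deletion is not given in the sources used here, so they check no label.

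TGF-β raised 5 of the 42 collagen genes in WT MSCs and lowered none, at an adjusted p under 0.05 in limma. The 5 were Col27a1 and Col5a3, which encode minor fibrillar chains, Col7a1, the chain of anchoring fibrils, Col8a2, a short-chain network collagen, and Col6a3, the largest chain of collagen VI. This was 11.9% of the collagen genes, while 4.02% of all genes were higher and 5.36% were lower. The chains of the major fibrils, Col1a1, Col3a1 and Col5a2, and the basement membrane chains Col4a1 and Col4a2 did not pass. The median log2 fold change was 0.03 over the 42 collagen genes and -0.01 over all genes. Calls were more frequent among genes of higher level, since 16.4% of all genes at or above the median level passed in either direction and 2.33% of those below it. Of the collagen genes 4 of 20 above the median level and 1 of 22 below it passed. The arrays with and without TGF-β did not overlap for 14.3% of the collagen genes and for 13.4% of all genes.

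The 250 bases before the annotated start of the 5 genes are shown because these are the collagen genes that TGF-β raised, and Smad proteins, which carry the TGF-β signal, bind the short core CAGAC. The sequences are from RefSeq (build GRCm38.p6), 5′ to 3′ on the strand of the gene, and matches to CAGAC on either strand are in capitals. They come from chr9:20815068-20815317 (minus strand) for Col5a3, chr4:63215162-63215411 (plus strand) for Col27a1, chr9:108953336-108953585 (plus strand) for Col7a1, chr4:126286544-126286793 (plus strand) for Col8a2 and chr1:90843972-90844221 (minus strand) for Col6a3.
Col5a3: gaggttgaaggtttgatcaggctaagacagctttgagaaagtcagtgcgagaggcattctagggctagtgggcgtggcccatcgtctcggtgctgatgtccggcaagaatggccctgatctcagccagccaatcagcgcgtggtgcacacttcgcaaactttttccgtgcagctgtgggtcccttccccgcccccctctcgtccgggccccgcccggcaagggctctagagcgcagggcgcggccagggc
Col27a1: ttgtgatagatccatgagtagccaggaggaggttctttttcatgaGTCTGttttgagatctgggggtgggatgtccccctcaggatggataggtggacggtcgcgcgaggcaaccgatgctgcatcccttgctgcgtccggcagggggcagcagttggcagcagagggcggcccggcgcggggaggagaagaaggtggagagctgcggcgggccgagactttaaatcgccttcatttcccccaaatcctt
Col7a1: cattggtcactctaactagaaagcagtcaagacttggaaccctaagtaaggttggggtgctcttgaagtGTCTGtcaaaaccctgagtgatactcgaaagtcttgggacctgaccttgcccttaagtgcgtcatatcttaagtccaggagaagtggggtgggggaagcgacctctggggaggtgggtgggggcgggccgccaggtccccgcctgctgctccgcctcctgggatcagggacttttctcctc
Col8a2: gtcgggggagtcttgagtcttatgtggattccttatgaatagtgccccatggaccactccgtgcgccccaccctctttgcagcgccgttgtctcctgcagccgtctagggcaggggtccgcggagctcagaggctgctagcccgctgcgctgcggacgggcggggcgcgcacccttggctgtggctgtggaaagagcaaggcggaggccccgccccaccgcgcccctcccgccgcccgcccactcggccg
Col6a3: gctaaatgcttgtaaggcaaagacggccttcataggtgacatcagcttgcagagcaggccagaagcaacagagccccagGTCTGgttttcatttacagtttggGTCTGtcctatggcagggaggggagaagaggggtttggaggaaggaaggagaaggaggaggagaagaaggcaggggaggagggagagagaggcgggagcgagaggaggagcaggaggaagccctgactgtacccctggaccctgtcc
CAGAC occurred in 3 of these 5 windows, with 2 matches in that of Col6a3 and 1 each in those of Col27a1 and Col7a1, and these letters were not in the windows of Col5a3 and Col8a2. It occurred in 12 of 31 windows of the other collagen genes and in 42.2% of all 32851 windows of the table. The AP-1 site TGANTCA, which Fos and Jun proteins bind, was in none of the 5 windows and among the collagen genes only in that of Col6a1, against 6.75% of all windows. The CCAAT box was in the windows of Col5a3 and Col7a1 and in 33.8% of all windows. Of the 42 genes 33 had an entry, and a match is a description of letters, not a site shown to be used.

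Col27a1 encodes a fibrillar collagen of cartilage and its log2 value was 6.84, 7.47, 7.55 and 7.34 in WT MSCs (arrays 1, 3, 4 and 4b) and 8.03, 8.90 and 8.92 in TGF-β-treated WT MSCs (arrays 1, 3 and 4). Every treated array lay above every untreated one. The log2 fold change was 1.38 ± 0.20 (SE, limma adjusted p = 0.00106), a fold change of 2.60. Its second probeset gave 0.88 and passed as well when all probesets were tested. Without the array number in the fit Col27a1 no longer passed (adjusted p = 0.0925 in limma).

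Col7a1 encodes the chain that ties the basement membrane of skin to the dermis, and its level was low without TGF-β, with log2 values of 4.17, 4.49, 4.36 and 4.22. With TGF-β the values were 5.06, 5.87 and 5.80. The groups did not overlap, and array 1 had the lowest value of each group. The log2 fold change was 1.30 ± 0.15 (SE, limma adjusted p = 0.000169), a fold change of 2.46.

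Col5a3 encodes a further chain of collagen V, which controls fibril diameter. Its log2 value was 4.98, 5.11, 5.34 and 5.00 in WT MSCs and 6.14, 5.89 and 6.57 with TGF-β, again without overlap. The log2 fold change was 1.13 ± 0.14 (SE, limma adjusted p = 0.000333). A second probeset at the low end of the scale (mean 3.03) showed 0.10 and did not pass.

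Col8a2 and Col8a1 encode the chains of collagen VIII, known from the matrix of vessel walls and the cornea. The log2 value of Col8a2 was 9.03, 8.83, 8.99 and 8.72 in WT MSCs and 9.85, 9.86 and 9.74 with TGF-β. The groups did not overlap, and the log2 fold change was 0.92 ± 0.09 (SE, limma adjusted p = 5.53e-05). Col8a1 had values of 6.65, 7.11, 6.98 and 7.18 without and 7.18, 7.62 and 6.88 with TGF-β. The groups overlapped and its log2 fold change of 0.23 ± 0.14 did not pass (SE, limma adjusted p = 0.391).

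Collagen VI is built of the chains of Col6a1, Col6a2 and Col6a3. Col6a3 had log2 values of 9.88, 10.17, 10.32 and 10.17 in WT MSCs and 10.33, 10.45 and 10.65 with TGF-β. The lowest treated value (array 1) was barely above the highest untreated one (array 4), and the log2 fold change was 0.37 ± 0.09 (SE, limma adjusted p = 0.0175). Without the arrays numbered 1 it was 0.33 and no longer passed (adjusted p = 0.0639 in limma). The other chains overlapped between the groups, Col6a1 with a log2 fold change of -0.04 and Col6a2 with 0.06.

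**Figure D1:**
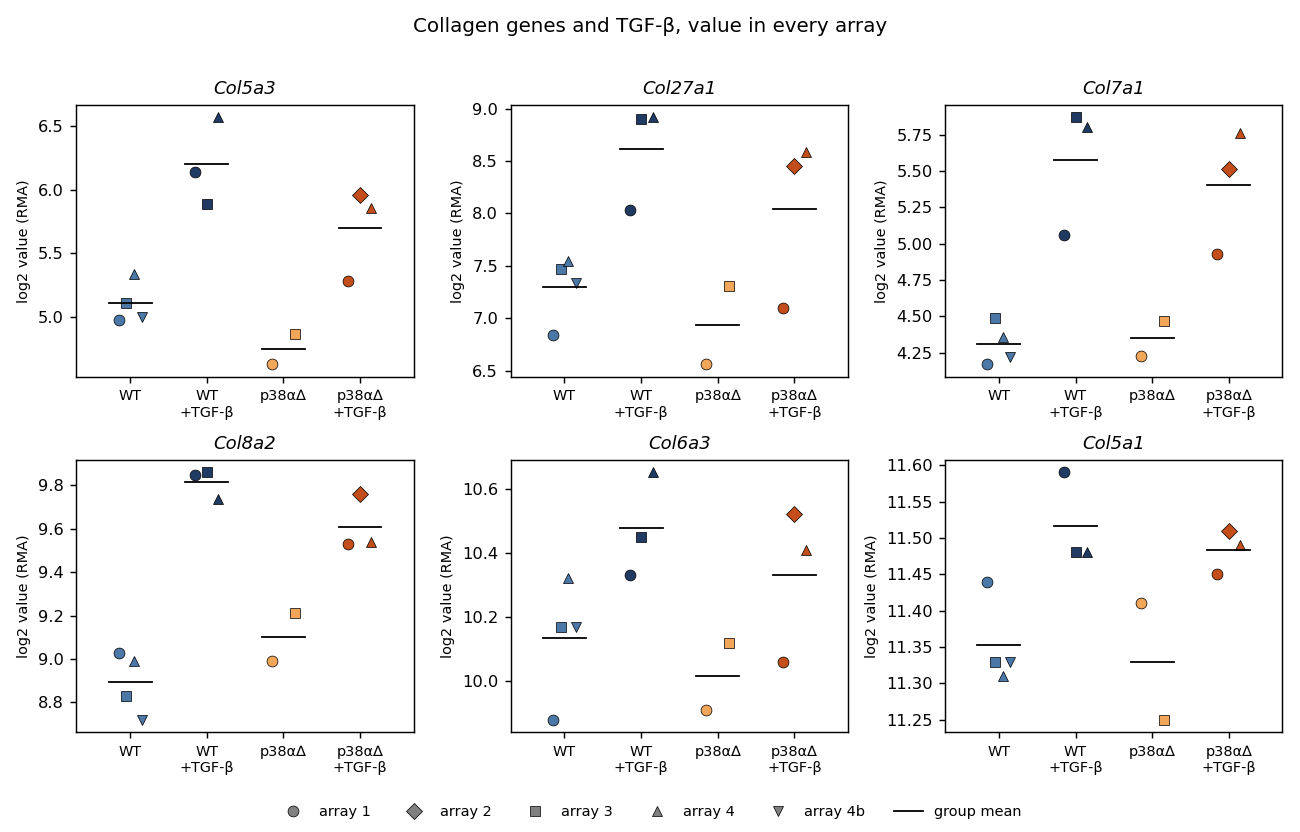
Log2 value (vertical axis, a separate scale in each panel that does not start at 0) of 6 collagen genes in every array, by group (horizontal axis), with 1 point per array, shape for the array number and a line for the group mean. In each panel the 3 TGF-β-treated WT arrays lie above the 4 untreated WT arrays, and Col5a1 spans the narrowest range.

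Within each array number the 5 genes were higher with TGF-β, which follows from their groups not overlapping. Only the sizes add to it. Col27a1 differed by 1.19 within number 1, 1.43 within number 3 and 1.47 within number 4 (4 and 4b averaged). The corresponding differences were 0.89, 1.38 and 1.51 for Col7a1, 1.16, 0.78 and 1.40 for Col5a3, 0.82, 1.03 and 0.89 for Col8a2, and 0.45, 0.28 and 0.40 for Col6a3. Over all 42 genes the median difference was 0.10 within number 1, 0.01 within number 3 and 0.02 within number 4.

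The fibrillar chains that make up the bulk of connective tissue were measured near the top of the scale, where the highest gene mean was 12.69. Col1a1, the first chain of collagen I, had log2 values of 12.48, 12.07, 12.08 and 12.08 in WT MSCs and 12.20, 11.97 and 12.02 with TGF-β. Its log2 fold change of -0.13 had a 95% interval from -0.30 to 0.05. Array 1 was the highest of each of these groups.

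Col3a1, the chain of collagen III, had values of 11.99, 12.11, 12.12 and 12.15 without and 12.12, 12.12 and 12.16 with TGF-β, a log2 fold change of 0.05 (95% interval -0.08 to 0.18). Col5a2, the second chain of collagen V, had values of 11.73, 11.75, 11.73 and 11.65 without and 11.82, 11.74 and 11.69 with TGF-β, a log2 fold change of 0.03 (95% interval -0.10 to 0.16). For both genes the groups overlapped. How far the array can show a rise at such levels was not tested. Col1a2, the second chain of collagen I, was read by a single listed probeset with values of 5.75, 6.23, 6.72 and 6.58 without and 5.90, 6.58 and 6.65 with TGF-β. Those arrays overlapped too, and its log2 fold change was 0.12 ± 0.19 (SE). Its mean of 6.33 lay far below the 12.12 of Col1a1. How well this probeset reads Col1a2 was not tested, so its values may not show the level of that chain.

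Col5a1, the first chain of collagen V, depended on the probeset. The probeset with the highest mean had values of 11.44, 11.33, 11.31 and 11.33 in WT MSCs and 11.59, 11.48 and 11.48 with TGF-β. The groups did not overlap, but the log2 fold change of 0.16 ± 0.06 did not pass (SE, limma adjusted p = 0.153). A second probeset rose from 10.98 to 11.18 without TGF-β to between 11.51 and 11.55 with it, a log2 fold change of 0.48 (adjusted p = 0.000557 over all probesets in limma), and another from between 9.65 and 10.02 to between 10.29 and 10.45, a log2 fold change of 0.56 (adjusted p = 0.00078). All 3 probesets were thus higher in every treated array, by different amounts.

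**Figure D2:**
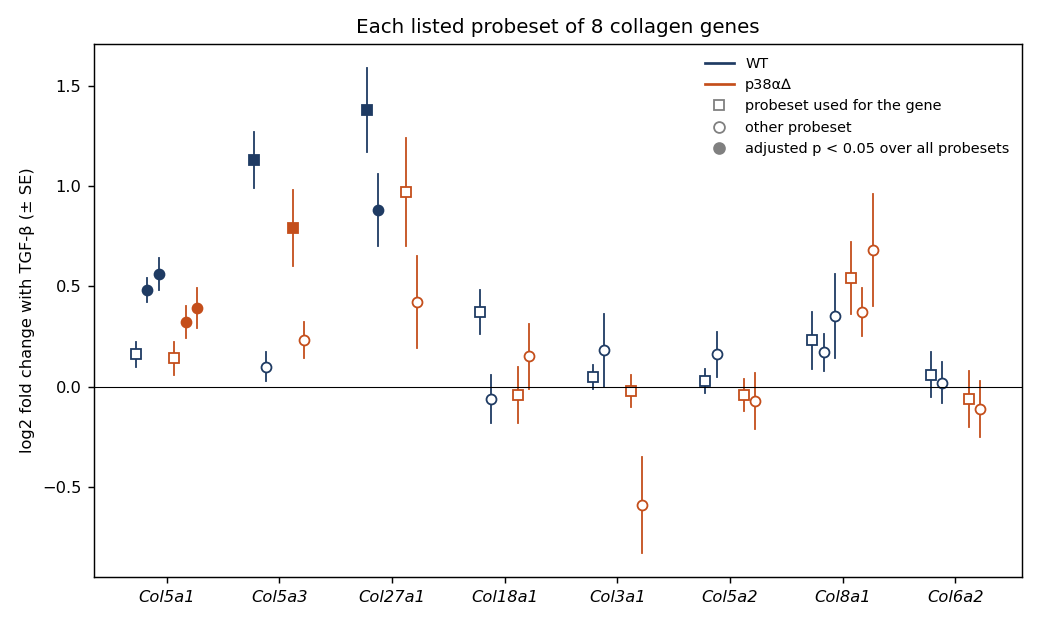
Log2 fold change with TGF-β (vertical axis, ± SE from limma) of each listed probeset of 8 collagen genes (horizontal axis) in WT and p38α∆ MSCs. Squares mark the probeset used for the gene and filled points passed when all probesets were tested, as 2 of the 3 probesets of Col5a1 did in both genotypes while the probeset used did not.

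The network class had 9 genes, of which Col8a2 passed. Col4a1 and Col4a2, the pair of chains of the common basement membrane collagen, lie head to head on the genome. Col4a1 had log2 values of 10.95, 10.94, 10.92 and 11.02 in WT MSCs and 11.07, 10.95 and 10.99 with TGF-β, a log2 fold change of 0.05. Col4a2 had values of 9.84, 9.41, 9.31 and 9.45 without and 9.56, 9.27 and 9.41 with TGF-β, a log2 fold change of -0.10. Neither passed, and the groups overlapped for both. The tissue-restricted chains Col4a3, Col4a4, Col4a6 and Col10a1 had means of 3.32 to 4.14, below the median gene.

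None of the 9 FACIT genes passed in WT MSCs, and their median was -0.03 (range -0.18 to 0.30). Col12a1, a fibril-associated collagen of tendon and ligament, was read by a single listed probeset with log2 values of 5.41, 5.32, 5.41 and 5.34 without and 5.21, 5.19 and 5.36 with TGF-β (log2 fold change -0.10, groups overlapping). Of the multiplexins, the basement membrane proteoglycans, Col15a1 was low, with values of 3.76, 3.63, 3.66 and 3.65 without and 3.85, 3.63 and 3.68 with TGF-β (log2 fold change 0.03). Neither of these genes moved beyond the spread between arrays.

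Col18a1, the precursor of endostatin, had values of 5.86, 5.78, 5.99 and 5.62 without and 6.51, 5.96 and 6.10 with TGF-β, and the groups overlapped. Its log2 fold change of 0.37 lay just outside the threshold (adjusted p = 0.0524 in limma). It passed under 4 of 23 alternatives (lowest adjusted p = 0.0213 in limma), and its other probeset gave -0.06. None of the 4 transmembrane collagens passed (range -0.20 to 0.31).

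**Figure D3:**
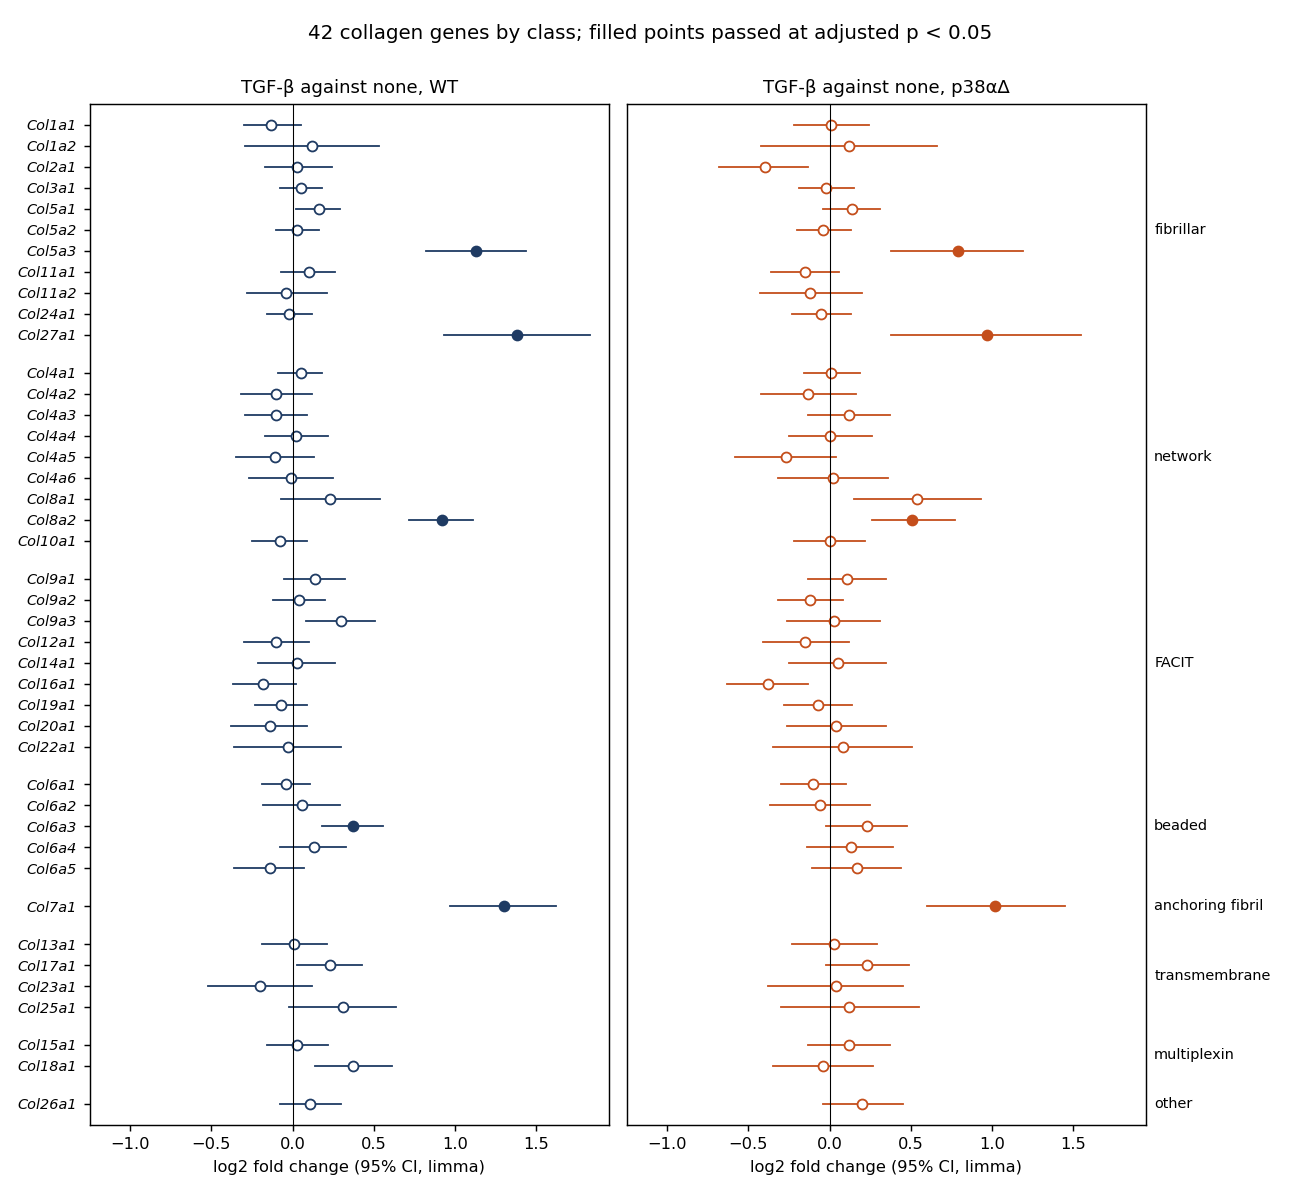
Log2 fold change with TGF-β (horizontal axis, with the 95% interval from limma) of the 42 collagen genes by class (vertical axis), in WT (left) and p38α∆ MSCs (right). Filled points passed at an adjusted p under 0.05, 5 in WT and 4 in p38α∆ MSCs, and all lie above 0.

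In p38α∆ MSCs TGF-β raised 4 of the 42 collagen genes (9.52%) and lowered none, while 3.43% of all genes were higher and 4.97% were lower. They were Col7a1, Col27a1, Col5a3 and Col8a2, which also passed in WT MSCs. Only 2 untreated p38α∆ arrays stood against 3 treated ones, and the median over the 42 genes was 0.03, against 0 over all genes.

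Col7a1 had log2 values of 4.23 and 4.47 in p38α∆ MSCs (arrays 1 and 3) and 4.93, 5.51 and 5.76 with TGF-β (arrays 1, 2 and 4), a log2 fold change of 1.02 ± 0.19 (SE, limma adjusted p = 0.00597). Col5a3 had values of 4.63 and 4.87 without and 5.28, 5.96 and 5.86 with TGF-β, a log2 fold change of 0.79 ± 0.19 (SE, limma adjusted p = 0.0215). Col8a2 had values of 8.99 and 9.21 without and 9.53, 9.76 and 9.54 with TGF-β, a log2 fold change of 0.51 ± 0.12 (SE, limma adjusted p = 0.0177). For these genes every treated array lay above both untreated ones. Col27a1 had values of 6.56 and 7.31 without and 7.10, 8.45 and 8.59 with TGF-β. Treated array 1 lay below untreated array 3, so the groups overlapped, and the log2 fold change of 0.97 ± 0.27 passed narrowly (SE, limma adjusted p = 0.0444). Without WT array 4b it was 0.95 and no longer passed (adjusted p = 0.064 in limma). When all probesets were tested, the probeset used for Col27a1 did not pass (adjusted p = 0.0549 in limma). Nor did its second probeset, with a log2 fold change of 0.42 (adjusted p = 0.368 in limma). Within number 1, the only number with both p38α∆ groups, the differences were 0.70 for Col7a1, 0.65 for Col5a3, 0.55 for Col8a2 and 0.53 for Col27a1. The second probeset of Col27a1 did not rise there, at 6.75 without and 6.70 with TGF-β.

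Leaving out either untreated p38α∆ array leaves 1 array in that group, so no calls are given for those fits. Leaving out TGF-β-treated array 4 left Col7a1 and Col8a2. With the arrays numbered 1 left out, array 3 was the only untreated p38α∆ array. The log2 fold change was then 1.21 for Col27a1 and 1.19 for Col7a1. In a fit of the 5 p38α∆ arrays alone, without the array number, none of the 42 passed.

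Further genes did not pass in p38α∆ MSCs but did not overlap between the groups. Col8a1 had log2 values of 7.02 and 7.50 without and 7.56, 7.92 and 7.74 with TGF-β, a log2 fold change of 0.54 (adjusted p = 0.0979 in limma). Col2a1, the chain of the cartilage fibril, and Col16a1, a FACIT collagen, were picked after their values were seen. Col2a1 had values of 6.31 and 6.12 without and 5.88, 5.82 and 5.61 with TGF-β, a log2 fold change of -0.40 (adjusted p = 0.0709 in limma). Col16a1 had values of 9.05 and 9.07 without and 8.50, 8.85 and 8.75 with TGF-β, a log2 fold change of -0.38 (adjusted p = 0.0692 in limma). Without WT array 1 both Col2a1 and Col16a1 passed as lower, as they did when only genes at or above the median level were tested. Over all genes 21.9% did not overlap in this comparison of 2 with 3 arrays, against 21.4% of the collagen genes.

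The other genes described above did not pass in p38α∆ MSCs, apart from further probesets of Col5a1. Col6a3 had log2 values of 9.91 and 10.12 without and 10.06, 10.52 and 10.41 with TGF-β, a log2 fold change of 0.23 (adjusted p = 0.294 in limma) with overlapping groups. Col1a1 had values of 12.30 and 11.93 without and 12.20, 12.08 and 12.10 with TGF-β, and Col3a1 of 12.03 and 12.18 without and 12.07, 12.12 and 12.09 with it. Neither moved beyond its spread (log2 fold changes of 0.01 and -0.02). Col1a2 was at 5.71 and 6.79 without and at 6.33, 5.99 and 6.73 with TGF-β, the widest spread among these chains. The probeset used for Col5a1 was at 11.41 and 11.25 without and at 11.45, 11.51 and 11.49 with TGF-β, a log2 fold change of 0.14, while its other probesets gave 0.32 and 0.39 and passed over all probesets. Col5a2 was at 11.75 and 11.77 without and at 11.68, 11.78 and 11.69 with TGF-β, Col12a1 at 5.29 and 5.48 without and at 5.00, 5.43 and 5.48 with it. The groups overlapped for both, as they did for Col15a1 (3.71 and 3.68 against 4.08, 3.64 and 3.60) and Col18a1 (6.12 and 5.93 against 6.16, 6.0 and 5.84).

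The difference between the responses of the genotypes was tested directly, and no gene passed in limma (0 of 17097, 920 at an unadjusted p under 0.05, 3 of them collagen genes). The background of this test and of the untreated comparison of genotypes is therefore 0%. The response in p38α∆ MSCs minus that in WT MSCs was -0.41 for Col27a1 (95% interval -1.16 to 0.34), -0.27 for Col7a1 (-0.81 to 0.27), -0.35 for Col5a3 (-0.87 to 0.18), -0.41 for Col8a2 (-0.73 to -0.08) and -0.14 for Col6a3 (-0.46 to 0.17). All 5 values were below 0, but these genes were picked by their response in WT MSCs, and their adjusted p-values were 0.862 to 0.944 in limma. Equal responses are not shown by this. The intervals of Col27a1, Col7a1, Col5a3 and Col8a2 extend over most of the size of the WT response, and that of Col6a3 extends beyond it. The interval of Col8a2 lay below 0 throughout, but it is not adjusted for the number of genes.

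Under TGF-β no collagen gene passed between the genotypes (0 of 42), where 0.368% of all genes were higher and 0.0819% lower. At an unadjusted p under 0.05 there were 7 collagen genes and 1471 genes in all. The TGF-β-treated arrays of the genotypes did not overlap for 9.52% of the collagen genes and for 8.71% of all genes. The nearest to the threshold was Col6a2, the second chain of collagen VI.

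With TGF-β the log2 values of Col6a2 were 10.33, 10.02 and 10.15 for WT MSCs (arrays 1, 3 and 4) against 9.78, 9.50 and 9.50 for p38α∆ MSCs (arrays 1, 2 and 4). Every p38α∆ array lay below every WT array. The difference was -0.57 (SE 0.12, 95% interval -0.84 to -0.30, adjusted p = 0.081 in limma), 67.4% of the WT level, and its other probeset gave -0.53. It was -0.55 within number 1 and -0.65 within number 4. Without TGF-β the values were 10.22, 10.18, 10.20 and 9.75 for WT MSCs (arrays 1, 3, 4 and 4b) against 9.85 and 9.54 for p38α∆ MSCs. Here array 4b lay among the p38α∆ arrays and the other WT arrays lay above them. The difference in the fit was -0.45 (adjusted p = 0.982 in limma), while the plain group means were 10.09 for WT and 9.70 for p38α∆ MSCs. With array 4b left out, Col6a2 passed in the TGF-β-treated comparison (-0.58, adjusted p = 0.0189 in limma) but not in the untreated one (-0.52, adjusted p = 0.231). That array is of untreated cells, so it enters the TGF-β-treated comparison through the shared spread and the array number.

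The differences of the partner chains of Col6a2 were smaller. Col6a1, which lies next to Col6a2 on the genome, had, under TGF-β, log2 values of 11.35, 11.09 and 11.25 for WT MSCs against 11.15, 10.94 and 11.01 for p38α∆ MSCs. The groups overlapped and the difference was -0.20 ± 0.08 (SE, limma adjusted p = 0.461). Without TGF-β the values of Col6a1 were 11.38, 11.22, 11.31 and 11.15 for WT against 11.23 and 11.03 for p38α∆ MSCs. Col6a3 differed by -0.18 with TGF-β and by -0.04 without it. All 5 beaded filament genes had negative differences in untreated cells (median -0.15) and 4 of 5 had with TGF-β (median -0.18), none of them past the threshold. Of all 17097 genes 8708 had negative differences in untreated cells and 8856 with TGF-β. Col6a4 and Col6a5, with means of 4.15 and 3.08, lay below the median gene.

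**Figure D4:**
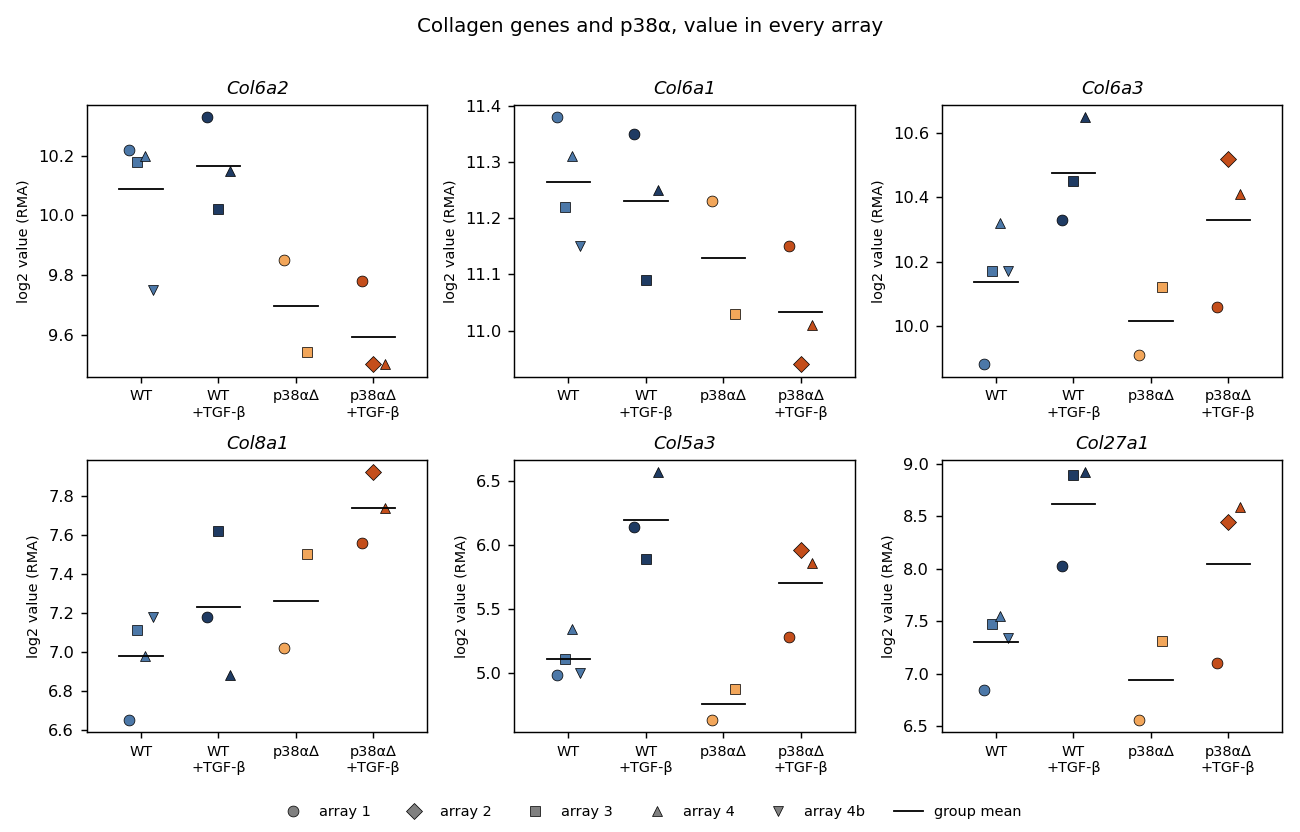
Log2 value (vertical axis, a separate scale in each panel that does not start at 0) of 6 collagen genes in every array, by group (horizontal axis), with 1 point per array, shape for the array number and a line for the group mean. For Col6a2 the 5 p38α∆ arrays lie between 9.50 and 9.85 and the 7 WT arrays between 10.02 and 10.33, except WT array 4b at 9.75.

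Col5a3 and Col27a1 lay lower in p38α∆ than in WT MSCs under TGF-β, each with a log2 difference of -0.58 that did not pass (adjusted p = 0.217 and 0.491 in limma). Their groups overlapped, and the difference was -0.86 within number 1 and -0.71 within number 4 for Col5a3, and -0.93 and -0.33 for Col27a1. Col8a2 differed by -0.23 (adjusted p = 0.574 in limma). Col8a1 went the other way, with a difference of 0.55 ± 0.16 (SE, limma adjusted p = 0.222), values of 7.18, 7.62 and 6.88 for WT against 7.56, 7.92 and 7.74 for p38α∆ MSCs, and differences of 0.40 and 0.54 at its other probesets. Col11a1, a minor fibrillar chain picked after its values were seen, had values of 9.74, 9.77 and 9.48 for WT against 9.27, 9.38 and 9.41 for p38α∆ MSCs. Those groups did not overlap, but the difference of -0.29 did not pass (adjusted p = 0.237 in limma). A second probeset of Col11a1 (mean 5.78) gave -0.42 with overlapping groups, and it did not pass over all probesets.

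At the probeset used for Col4a1, every p38α∆ array lay above every WT array within either condition, by little. Its values were 11.07, 10.95 and 10.99 for WT against 11.11, 11.17 and 11.14 for p38α∆ MSCs with TGF-β, and 10.92 to 11.02 for WT against 11.07 and 11.16 for p38α∆ MSCs without it. The differences were 0.13 with TGF-β (adjusted p = 0.696 in limma) and 0.16 without it (adjusted p = 0.982 in limma). The second probeset of Col4a1 overlapped between the genotypes in both conditions, with differences of 0.14 with TGF-β and 0.15 without it. Its values with TGF-β were 9.92, 9.60 and 9.74 for WT against 9.83, 9.92 and 10.02 for p38α∆ MSCs. Col4a2 overlapped in both, at 9.48, 9.55 and 9.60 in TGF-β-treated and 9.83 and 9.46 in untreated p38α∆ MSCs. A second probeset of Col3a1 (mean 6.47) gave -0.81 with TGF-β, where the probeset used gave -0.04, and neither passed over all probesets.

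In untreated cells no gene passed between p38α∆ and WT MSCs in limma (0 of 17097, and 841 at an unadjusted p under 0.05, 3 of them collagen genes). Those 3 were Col6a2 and Col4a1, described above, and Col2a1 (0.36). The median difference was 0.01 over the collagen genes, with a range from -0.45 to 0.36. The untreated arrays of the genotypes did not overlap for 7.14% of the collagen genes and for 6.52% of all genes.

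**Figure D5:**
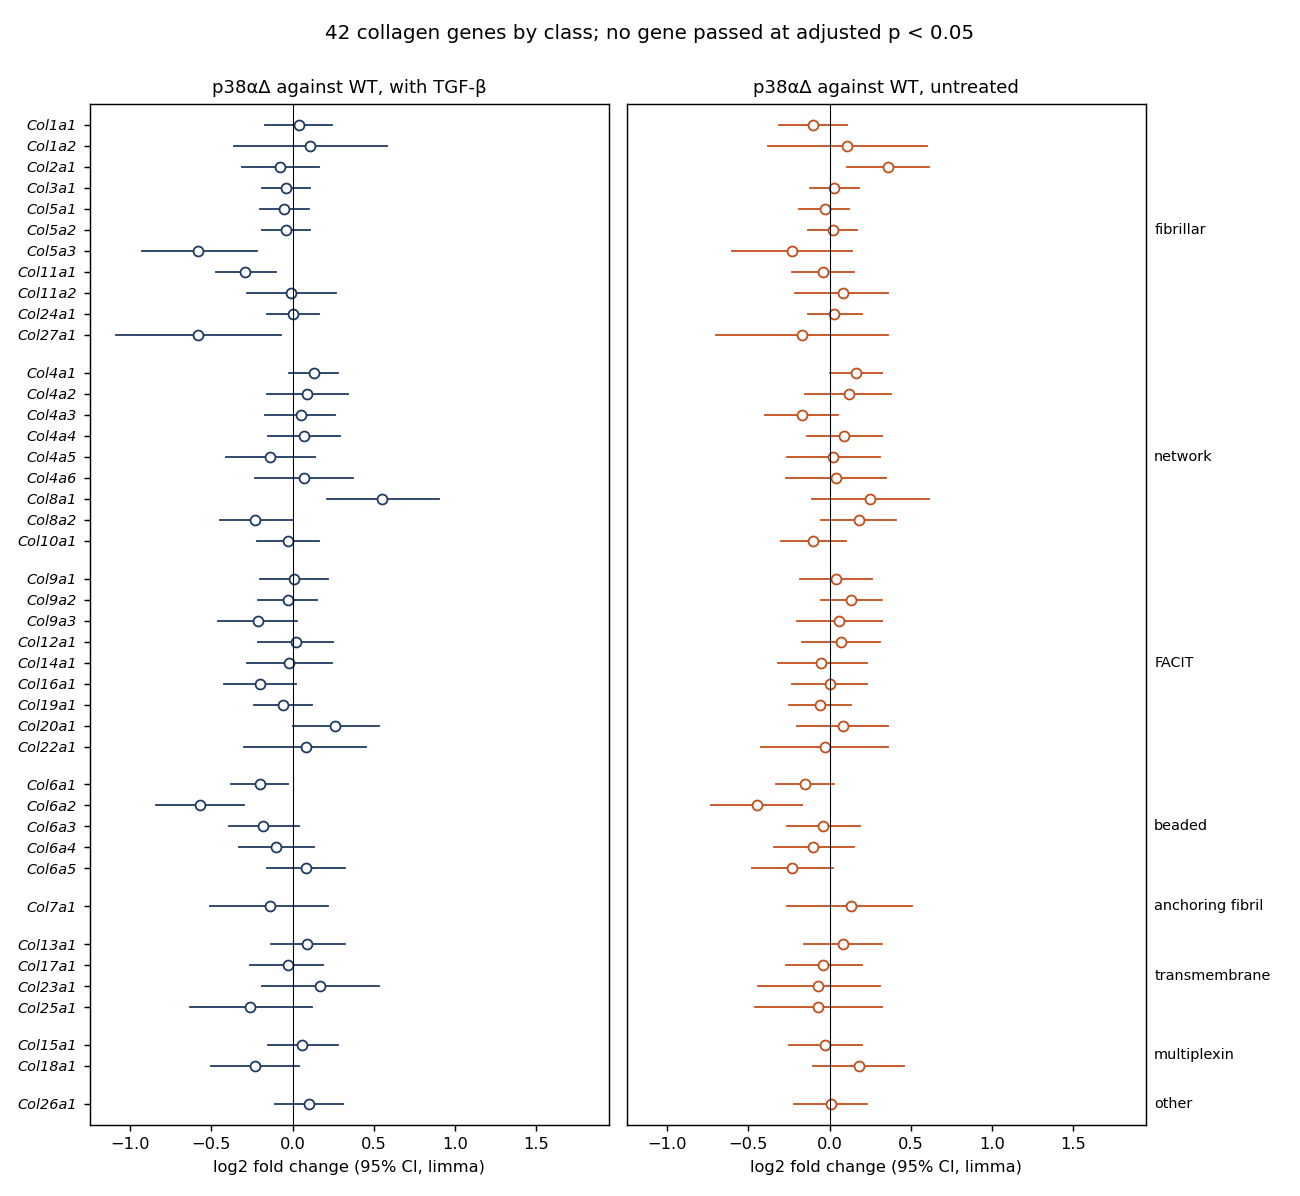
Log2 difference of p38α∆ from WT MSCs (horizontal axis, with the 95% interval from limma) of the 42 collagen genes by class (vertical axis), with TGF-β (left) and without it (right). All points are open because no gene passed at an adjusted p under 0.05, and Col6a2 lies lowest of the beaded class on both sides, at -0.57 and -0.45.

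The genes that make, modify and bind collagen were looked at beside the chains. Of 21 measured genes of procollagen folding and secretion 3 (14.3%) rose with TGF-β in WT MSCs and none fell, beside 4.02% of all genes higher and 5.36% lower. They were Plod2, which hydroxylates the lysines of collagen ends (1.09 in WT, 1.38 in p38α∆ MSCs), and the coat proteins Sec23a (0.67 in WT MSCs, not past the threshold in p38α∆ MSCs) and Sec24d (0.32 and 0.54), which carry procollagen out of the endoplasmic reticulum. In p38α∆ MSCs 2 of the 21 rose (9.52%), beside 3.43% of all genes higher and 4.97% lower. Of 11 genes of procollagen processing and crosslinking 2 rose in WT MSCs, the lysyl oxidases Loxl2 (0.85) and Lox (0.32), and 1 in p38α∆ MSCs, Loxl2 (0.79). The medians of these lists were 0.04 and 0.03 in WT MSCs.

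Of 15 collagen-binding proteoglycans and glycoproteins 1 (6.67%) rose in both genotypes, Tgfbi (1.36 and 1.49), which links collagen to integrins. Of 10 collagen receptors 1 (10%) fell in both, the receptor kinase Ddr2 (-0.44 and -0.60). The shares of all genes that passed in these directions were 4.02% higher and 5.36% lower in WT and 3.43% and 4.97% in p38α∆ MSCs. Of 12 collagen-degrading proteases 2 fell in both and none rose, the collagenase Mmp13 (-0.91 in WT, -1.74 in p38α∆ MSCs) and the membrane protease Mmp16 (-0.81 and -0.91). The medians were -0.01 for the binding proteins, 0.01 for the receptors and -0.03 for the proteases in WT MSCs, beside -0.01 over all genes.

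Of 15 known Smad-dependent targets 7 (46.7%) rose in WT and 9 (60%) in p38α∆ MSCs, with none lower. Of all genes 4.02% were higher and 5.36% lower in WT, and 3.43% and 4.97% in p38α∆ MSCs. Ccn2, a matrix protein, rose by 3.57 and 4.73, Skil, a Smad co-repressor, by 2.53 and 2.56, the repressor Bhlhe40 by 1.74 and 1.97, and Smad7, the inhibitory Smad, by 1.22 and 1.67. The median of that list was 0.44 in WT and 0.74 in p38α∆ MSCs, and 0.03 for the collagen genes in each. Between the TGF-β-treated genotypes the 6 lists held 1 gene that passed, Ccn2 (1.74, adjusted p = 0.00273 in limma), and in untreated cells none. In the TGF-β-treated comparison 0.368% of all genes were higher and 0.0819% lower.

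Markers of lineages that make particular collagens moved with TGF-β too. Sox9, a regulator of cartilage collagens, rose by 0.59 in WT and by 0.99 in p38α∆ MSCs, while Acan, Hapln1, Matn1 and Matn3 did not pass and had means of 2.95 to 4.48. The summed log2 level of the 5 chondrocyte markers was 21.44 to 22.19 in WT, 22.46 to 23.52 in TGF-β-treated WT, 21.06 to 21.84 in p38α∆ and 22.70 to 23.06 in TGF-β-treated p38α∆ MSCs. Of the osteoblast markers Bglap fell by 0.73 and 0.88, Sp7 rose by 0.50 in WT MSCs, and Ibsp did not pass. The sum of these 3 was 23.71 to 24.36 in WT, 22.70 to 23.91 in TGF-β-treated WT, 24.46 to 25.08 in p38α∆ and 23.47 to 23.72 in TGF-β-treated p38α∆ MSCs. Of the 5 MSC markers under TGF-β Mcam was higher in p38α∆ than in WT MSCs (1.14, adjusted p = 0.00273 in limma). The others did not pass and differed by -0.05 to 0.11. The sum of all 5, Mcam included, was 35.70 to 36.24 in TGF-β-treated WT and 37.17 to 37.53 in TGF-β-treated p38α∆ MSCs. The sum of the 4 endothelial markers was 14.18 to 14.88 and 14.38 to 15.10. The part of these markers in the collagen values was not tested.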

How the data were processed

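RNA of the MSCs was amplified and hybridized to 12 Affymetrix MG-430 PM arrays. The authors corrected background and summarized probes with RMA. The values that they deposited are log2 values, 1 for each probeset, and were not scaled again. Of 45037 probesets without controls, GEO's platform annotation gave 1 symbol to 28898 and several to 551, and the other 15588 were not listed and not used here. The probeset with the highest mean stood for each of 17097 genes.

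Groups were taken from the sample titles. They were compared in 1 fit of all arrays in limma (version 3.58.1, R 4.3.3), with the array number as a random block (estimated correlation 0.49, 4b counted as 4), since the study's own model had a term for scanning batch, which the sources used here do not give per array. Fold changes and differences between groups are estimates of that fit. It weighs the arrays by their number, so these can depart from differences of the plain group means. Two-sided p-values were adjusted (Benjamini-Hochberg) across all genes. The fit was tested on data simulated with an equal correlation for every array number, as the fit assumes. That simulation does not show whether this holds for these arrays.

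The collagen genes, classes and lists of related genes were chosen with earlier results of these data known. Every collagen gene that passed is named. The other genes given in every array are among 14 chains chosen for their known roles, and any further gene is said to be picked after its values were seen. Alternatives were the block, the probeset, the filter, the scaling, a mean-variance trend and left-out arrays. Promoter windows were read from RefSeq tables (GRCm38.p6). Arrays give no read depth, and their number limits the precision.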

Additional observations from a re-analysis of the deposited data

Results flagged for a closer look

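In the untreated WT group, the only group with 4 arrays, 4 of the 42 collagen genes had 1 array far from the rest, its gap to the nearest value, as a share of the group's range, being over Dixon's critical value. Chance gives this in about 1 of 20 groups. Col14a1 was at 4.14 in array 1, Col1a1 at 12.48 in array 1 and Col5a1 at 11.44 in array 1, each above the other 3 arrays. Col6a2 was at 9.75 in array 4b, below the other 3.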

How the results depend on the processing

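Of the 5 collagen genes that passed with TGF-β in WT MSCs, Col5a3, Col7a1 and Col8a2 passed under every alternative that tested them (Col7a1 lay below the filter on level), Col27a1 under all but the fit with no replicate block (adjusted p = 0.0925 in limma), and Col6a3 under 18 of 23. The count was 3 with no replicate block and 4 to 6 with 1 array left out. In p38α∆ MSCs the 4 calls were less steady. With no replicate block 2 passed, and 2 with the block as a fixed term. With only the arrays of the groups compared 0 passed, where no correlation could be estimated and no block was used. Without WT array 1 the count was 6. Fits that leave 1 untreated p38α∆ array, such as that without the arrays numbered 1, are given no count. Col27a1 passed in p38α∆ MSCs under 8 of 23 alternatives, some of which leave 1 such array. Between the TGF-β-treated genotypes 1 passed (Col6a2, lower) with only the arrays compared (-0.59, adjusted p = 0.0298 in limma), and 0 to 1 with 1 array left out. With the probeset of highest median absolute deviation, with quantile normalization, or with the mean of all listed probesets of a gene (chosen after the probesets of Col5a1 were seen to differ), 6 passed in WT MSCs, the 5 and Col5a1. Fold changes were compared under these alternatives only for collagen genes with an unadjusted p under 0.05 in limma in the comparison concerned. None of these changed sign, which that choice makes likely beforehand. For the other collagen genes the sign was not followed. With quantile normalization or centring the median fold change of all genes stayed within 0.02 of its value in the fit reported.

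Over all genes, 602 in place of 1604 passed with TGF-β in WT MSCs with no replicate block and 624 in place of 1436 in p38α∆ MSCs, 75 in p38α∆ MSCs with only the arrays compared, and 147 in place of 77 between the TGF-β-treated genotypes with only the arrays compared. The numbers do not clearly pair the arrays. Deviations from the group means correlated by 0.64 to 0.85 for number 1 and by 0.68 to 0.78 for number 3. For number 4 they correlated by 0.02 to 0.31. The 2 untreated p38α∆ arrays deviate by equal and opposite amounts, so the values for number 3 are not independent of those for number 1. Calls lost or won with the replicate block rest on a pairing that these values do not settle. With 2 untreated p38α∆ arrays, and with probesets near the top of the scale, small changes of collagen genes may not be detectable.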
